A study of Mus musculus with 2 samples.

Results

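The levels of 10 genes that mark epithelial and mesenchymal identity were followed through the cell types of metastatic mouse lung. They were chosen by gene symbol and not by a measured value: the epithelial genes Epcam, Cdh1, Krt7, Krt8, Krt18, Cldn3 and Cldn7, and the mesenchymal genes Cdh2, Vim and Fn1. They make up 10 of the 27999 genes listed in each of the 2 libraries. Droplet-based single-cell RNA sequencing was performed on dissociated, perfused lungs of female FVB/NJ mice that were 10 weeks old when Met-1 mouse mammary carcinoma cells were injected into the tail vein. A mouse taken at week 1 gave the low metastatic burden library, and another taken at week 3 gave the high metastatic burden library. Both mice received Met-1 cells, so there is no uninjected lung, and all metastatic cells derive from 1 cell line. Mouse, week, burden and sequencing depth differ together between the libraries and cannot be told apart. With 1 mouse in each group no test between groups was possible, and no value below has a replicate check. All intervals in brackets are 95% intervals that cover counting error only.

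Epithelial cells are held in sheets by adherens junctions, whose core is E-cadherin (the product of Cdh1), and by tight junctions built from claudins, and their intermediate filaments are made of keratins that pair as a type II with a type I chain. Mesenchymal cells use N-cadherin (Cdh2) and vimentin filaments (Vim) instead and secrete fibronectin (Fn1) into the matrix. Carcinoma cells can move between these states, a process called epithelial-mesenchymal transition, in which transcription factors of the Snail, Zeb and Twist families repress epithelial genes.

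The deposited counts of unique molecular identifiers (UMIs, each a captured RNA molecule) totalled 14041471 in the low-burden library and 52723173 in the high-burden library, over 2668 and 3121 cells. After cells with too few or too many genes or a high mitochondrial share were left out, 2473 and 3033 cells remained, with a median of 4073 and 13998 UMIs per cell. Cell classes were assigned by gates, lists of marker genes that contained none of the 10 genes: a cell took the class with the highest share of its markers detected if at least 3 were present and no class of another tissue compartment exceeded 50% of that share. This stringent gate placed 67.0% of cells at low burden and 36.0% at high burden. The 2 libraries shared 11 cell barcodes, which 8 gated cells of the low-burden and 3 of the high-burden library carried.

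The metastatic gate, built from 9 genes of the tumor line, took 101 high-burden cells with a median of 23707 UMIs and no low-burden cell. A broad gate without the limit on other compartments, added after the data were seen, took 1159 high-burden cells and again no low-burden cell, and it is given beside the stringent gate because the latter left most high-burden cells unplaced. Xist, the RNA of the inactive X chromosome in female cells, stood at 30.5 UMIs per 1000000 (CPM) in the stringent metastatic gate. It stood at 538 CPM in lung epithelial cells, 895 CPM in fibroblasts and 1029 CPM in T, NK and B cells of the same library. Ptprc, the leukocyte surface protein CD45, stood at 7.64 CPM in metastatic cells and 231 CPM in T, NK and B cells. The gate therefore held cells that differed from host cells by genes outside its list. The PYMT transgene did not separate them, with 67.1 CPM in metastatic cells, 74.1 CPM in lung epithelial cells and 55.8 CPM in T, NK and B cells, and no UMI in these classes of the low-burden library.

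Metastatic cells were compared with the lung epithelium of the same library, the 83 cells summed over the alveolar type II (AT2), alveolar type I (AT1), club and ciliated gates, to ask how much of the epithelial program they held. All 7 epithelial genes were lower in metastatic cells and all 3 mesenchymal genes were higher. A gene was called when its level differed at least 2-fold and the interval of its log2 ratio left out 0. Over all 6240 genes with at least 50 UMIs on both sides together, 8.62% were called lower and 31.9% higher. The median log2 ratio was -6.77 for the epithelial genes and 2.40 for the mesenchymal genes, beside 0.58 for all genes tested. Every ratio of the 10 genes kept its direction when that shift of all genes was taken out.

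The adhesion genes were nearly absent. Epcam, which encodes a surface adhesion molecule of epithelia, gave 2 UMIs in metastatic cells and 141 UMIs in lung epithelial cells, a level of 0.80 CPM (0.097 to 2.90) against 171 CPM (144 to 202). Its level was 213-fold lower (57.9 to 1777). Cdh1 gave 2 and 111 UMIs, 0.80 CPM against 135 CPM, and was 168-fold lower (45.4 to 1402). Neither gene lay above its level in T, NK and B cells, which should lack both. These held Epcam at 31.9 CPM (13.8 to 62.9) and Cdh1 at 3.99 CPM (0.101 to 22.2). The 8 Epcam UMIs lay in 2 cells, so that value need not be a level of free RNA. High-burden monocytes or macrophages held Epcam at 3.45 CPM and Cdh1 at 5.84 CPM, also higher values than in metastatic cells, though the Epcam intervals overlapped. In the broad gate the counts were large enough to measure, with 54 Epcam UMIs at 1.90 CPM (1.43 to 2.48) and 37 Cdh1 UMIs at 1.30 CPM (0.916 to 1.79).

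The keratins did not behave alike. Krt8, the type II keratin of simple epithelia, gave 5 UMIs in metastatic cells at 2.01 CPM (0.652 to 4.69) and 251 UMIs in lung epithelial cells at 305 CPM (268 to 345), 152-fold lower (64.2 to 471). Krt7, another type II keratin of simple and glandular epithelia, gave 6 and 217 UMIs and was 109-fold lower (49.4 to 301). Krt18, the type I keratin that pairs with Krt8, gave 186 UMIs in metastatic cells at 74.7 CPM (64.4 to 86.3) and 176 UMIs in lung epithelial cells at 214 CPM (183 to 248). Krt18 was thus lower by 2.86-fold (2.31 to 3.53), the smallest difference of the 7 epithelial genes. T, NK and B cells held Krt18 at 7.97 CPM (0.966 to 28.8), 9.37-fold under metastatic cells, with a log2 ratio of 3.23 (1.36 to 6.28). In metastatic cells the UMIs of the other 6 epithelial genes could not be told from background by this reference. None lay beyond counting error above the level of T, NK and B cells, which with 36 cells are too few to show a small excess. That level rests on 1 UMI each for Cdh1, Krt8 and Cldn7, and in the broad gate Krt8 (2.29 against 1.59 CPM) and Cldn7 (2.50 against 1.59 CPM) had the higher value in metastatic cells, within the interval of the lymphocytes. A processed copy of Krt8, Krt8-ps, is annotated in the genome and is not among the genes listed in the files, and how its reads were counted is not stated.

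The claudins followed the adhesion genes. Cldn3, a claudin that seals tight junctions, gave 16 UMIs in metastatic cells at 6.43 CPM (3.68 to 10.4) and 371 UMIs in lung epithelial cells at 451 CPM (406 to 499), and was 70.1-fold lower (42.6 to 124). Cldn7 gave 7 and 139 UMIs, 2.81 CPM against 169 CPM, with a log2 ratio of -5.91 (-7.25 to -4.83). T, NK and B cells held Cldn3 at 7.97 CPM (0.966 to 28.8) and Cldn7 at 3.99 CPM (0.101 to 22.2), intervals that cover the metastatic levels. The 705 high-burden monocytes or macrophages held Cldn3 at 3.05 CPM (1.94 to 4.58), under the broad metastatic gate at 5.59 CPM (4.76 to 6.53). The interval of the stringent metastatic gate overlaps theirs, and so does that of Cldn7 in the broad gate (2.50 against 1.46 CPM). Epcam, Cdh1, Krt7 and Krt8 had the higher value in these monocytes or macrophages than in the broad metastatic gate. Only for Cdh1 were the intervals apart, at 5.84 CPM (4.25 to 7.84) against 1.30 CPM (0.916 to 1.79). Whether Cldn3 lay above background is thus not settled.

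The mesenchymal genes were all higher. Vim gave 8888 UMIs in metastatic cells at 3572 CPM and 344 UMIs in lung epithelial cells at 418 CPM (375 to 464), 8.55-fold higher (7.67 to 9.55). Fn1 gave 867 UMIs at 348 CPM (326 to 372) and 80 UMIs at 97.2 CPM (77.1 to 121), 3.59-fold higher (2.85 to 4.57). Cdh2 gave 112 UMIs at 45.0 CPM (37.1 to 54.2) and 7 UMIs at 8.50 CPM (3.42 to 17.5), 5.29-fold higher (2.49 to 13.5). Lung epithelial cells held Fn1 and Cdh2 near the level of T, NK and B cells, which was 112 CPM (74.2 to 161) for Fn1 and 7.97 CPM (0.966 to 28.8) for Cdh2. The latter cells express Vim themselves, at 1340 CPM. In the broad metastatic gate Vim stood at 3278 CPM, Fn1 at 421 CPM and Cdh2 at 41.6 CPM, and all 10 genes kept their call against the same lung epithelial cells. With the broad gate on both sides, whose 182 epithelial cells held the metastatic markers at a summed 541 CPM against 139 CPM in the stringent gate, the Fn1 call was lost, at 421 against 322 CPM (log2 ratio 0.39). Vim and Cdh2 kept theirs at 1.14 and 1.10, and the part of those markers in the change was not tested.

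**Figure D1:**
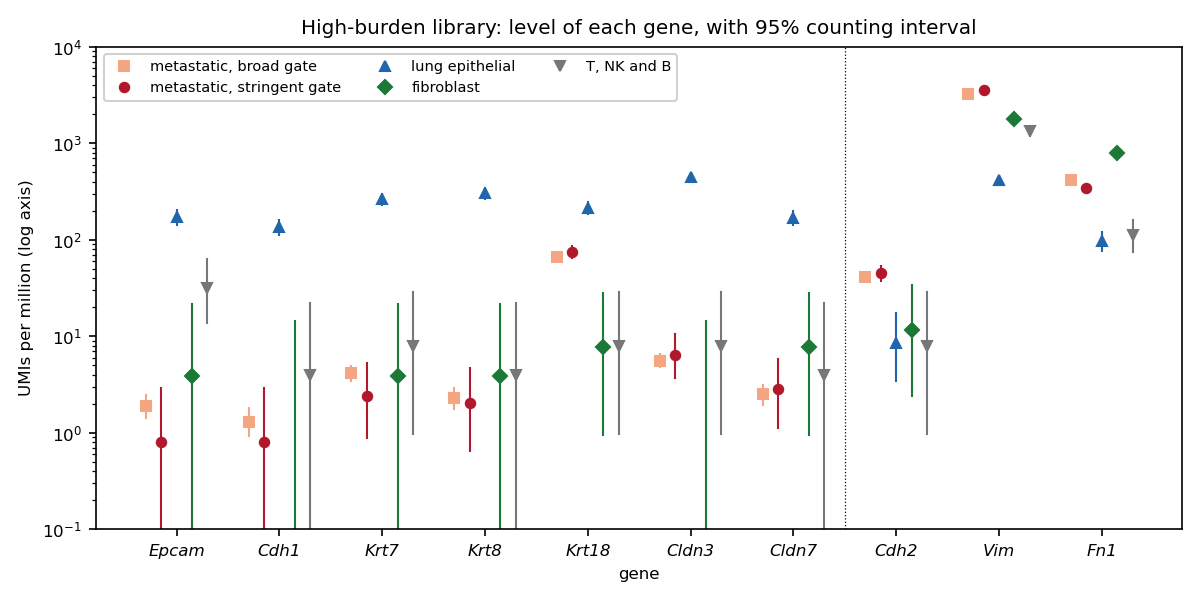
Level of each of the 10 genes in the high-burden library, in UMIs per 1000000 on a log axis, with 95% counting intervals. Points are sums over the cells of a gate and a bar without a point is a count of 0. The epithelial genes other than Krt18 lie in metastatic cells (red and orange) near or below the T, NK and B cells (gray), while Krt18 at 74.7 CPM lies between these and lung epithelium (blue) and the mesenchymal genes Cdh2, Vim and Fn1 lie above lung epithelium.

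The unequal change of the keratin pair was visible without any scaling, as the number of Krt18 UMIs per Krt8 UMI within the same cells. Metastatic cells gave 37.2 (15.7 to 116) in the stringent gate and 29.3 (22.9 to 38.1) in the broad gate. Lung epithelial cells gave 0.70 (0.575 to 0.854) at high burden and 0.73 (0.624 to 0.864) at low burden. Among the epithelial classes of the stringent gate the ratio ran from 0.44 in low-burden ciliated cells to 1.71 in low-burden club cells, and mesothelial cells gave 1.33 (1.02 to 1.73) at high burden. In the stringent gate no class of lung cells with at least 20 UMIs of the pair came near the ratio of metastatic cells. In the broad gate high-burden AT2 and club cells gave 1.92 and 2.10 and endothelial cells 7.50 (3.57 to 18.2). High-burden fibroblasts of that gate gave 20.9 (9.87 to 52.8), but those 167 cells also held the markers of the metastatic gate at a summed 1017 CPM. Monocytes or macrophages at high burden gave 3.29 (1.99 to 5.64) from 69 Krt18 and 21 Krt8 UMIs, at levels of 9.16 and 2.79 CPM that did not exceed those of T, NK and B cells beyond counting error.

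**Figure D2:**
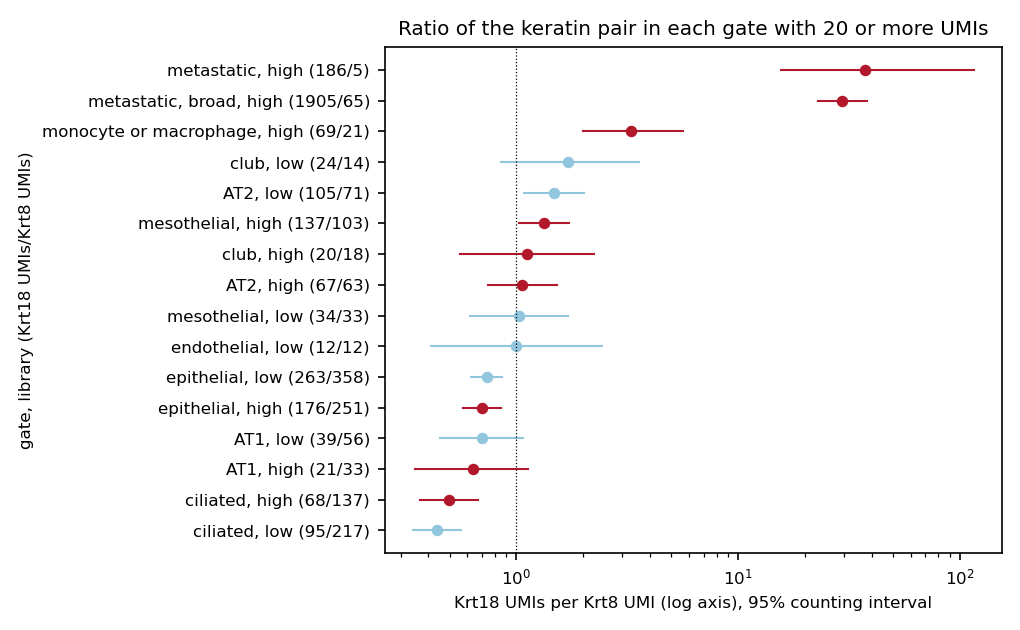
Krt18 UMIs per Krt8 UMI (log axis) in each gate and library with at least 20 UMIs of the pair, with 95% counting intervals; red is high burden and blue is low burden. The stringent and broad metastatic gates, at 37.2 and 29.3, stand apart from epithelial and mesothelial cells of the stringent gate, which lie between 0.44 and 1.71.

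The promoters of the 10 genes were searched because repressors of the Snail and Zeb families bind the E-box CAGGTG, sought on both strands (its reverse complement reads CACCTG). RefSeq entries on GRCm38.p6 were found for 7 of the 10 genes, and Cdh1, Cdh2 and Fn1 had no entry. The 7 take in Vim, which was higher in metastatic cells, so their shares are not those of the low genes alone. Within the 250 bases before the transcription start, 5 of these 7 genes held the E-box: Epcam, Krt7, Krt8, Krt18 and Cldn7. Over 27025 genes with an entry, 19.4% held it. The AP-1 site TGANTCA was found in 0 of 7 genes (7.82% of all genes), and the GC box GGGCGG in 4 of 7 (35.4%), namely Epcam, Krt7, Cldn3 and Cldn7. The stretches before the start of Epcam (chr17:87635729-87635978, plus strand) and Krt18 (chr15:102027966-102028179, plus strand, ending where the first annotated transcript begins) are given 5′ to 3′, with E-boxes in capitals.
Epcam: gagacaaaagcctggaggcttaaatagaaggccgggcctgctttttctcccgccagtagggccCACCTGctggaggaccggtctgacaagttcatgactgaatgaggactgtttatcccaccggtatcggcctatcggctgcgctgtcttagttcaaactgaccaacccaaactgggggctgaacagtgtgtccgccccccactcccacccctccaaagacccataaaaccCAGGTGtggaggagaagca
Krt18: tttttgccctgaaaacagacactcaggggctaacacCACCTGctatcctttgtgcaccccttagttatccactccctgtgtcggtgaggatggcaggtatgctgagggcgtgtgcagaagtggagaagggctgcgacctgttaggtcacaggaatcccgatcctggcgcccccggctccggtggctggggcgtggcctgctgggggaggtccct
For Krt7 (chr15:101412347-101412376, plus strand) and Cldn7 (chr11:69965312-69965341 and chr11:69965352-69965381, plus strand), 30 bases around each E-box are given, and all of these overlap an exon of some annotated transcript.
Krt7: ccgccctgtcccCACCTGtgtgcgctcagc
Cldn7, first E-box: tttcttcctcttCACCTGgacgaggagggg
Cldn7, second E-box: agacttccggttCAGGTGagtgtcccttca
A match of these letters is a description of the sequence and not evidence of binding.

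In GENCODE M21 on GRCm38 the genes occupy chr17:87635979-87651129 (Epcam), chr8:106603351-106670246 (Cdh1), chr15:101411043-101430313 (Krt7), chr15:101996698-102004482 (Krt8), chr15:102028180-102032027 (Krt18), chr5:134986214-134987472 (Cldn3), chr11:69964779-69967885 (Cldn7), chr2:13573927-13582826 (Vim) and chr1:71585520-71653200 (Fn1), and Cdh2 lies on chromosome 18. All 10 identifiers were found in the files, each in 1 row. Krt8 and Krt18 are neighbors on chromosome 15 that are transcribed away from each other, so the keratin pair with unequal levels shares its locus.

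The genes were then counted cell by cell, to ask whether a subset of the gated metastatic cells held the epithelial program. Tumor cells low in the markers of the metastatic gate could not enter either gate. The stringent gate also left out cells with many lung epithelial markers, so such cells could be missed. Depth differs between classes, so every cell was also thinned to 3000 UMIs, and shallower cells were left out (0 of the 101 metastatic, 83 lung epithelial, 38 fibroblast and 36 T, NK and B cells at high burden). After thinning, 75.2% of metastatic cells showed none of the 7 epithelial genes, and 4.95% showed an epithelial gene other than Krt18. That share was 5.56% in T, NK and B cells, 7.89% in fibroblasts and 91.6% in lung epithelial cells. At full depth it was 28.7% in metastatic cells, with a median of 23707 UMIs, and 25.0% in T, NK and B cells, with a median of 6733. At either depth the share of metastatic cells with such a gene lay far closer to that of lymphocytes than to that of lung epithelium.

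Krt18 was the exception again. A Krt18 UMI was found in 60.4% of metastatic cells (50.2 to 70.0) at full depth and in 19.8% (12.5 to 28.9) after thinning. T, NK and B cells showed it in 5.56% at full depth and in 0 of 36 after thinning, which allows a share of cells with a UMI of up to 8.33% by the limit of 3 counts. Lung epithelial cells showed it in 61.4% at full depth and 38.6% after thinning. Cdh2 was found in 60.4% and 13.9% (7.79 to 22.2) of metastatic cells and in 7 and 1 of the 83 lung epithelial cells. Vim was found in all 101 metastatic cells at both depths, and Fn1 in all 101 at full depth and in 58.4% after thinning.

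Few metastatic cells carried several epithelial genes. In the stringent gate 2 of 101 cells (1.98%) had UMIs of at least 3 of them, and 0 after thinning, against 89.2% and 56.6% of lung epithelial cells. In the broad gate 45 of 1159 cells (3.88%) did, and 1 after thinning. These 45 cells had a median of 28387 UMIs against 22729 in the other 1114, and none had 10 or more UMIs of epithelial genes other than Krt18. Their Cdh2 stood at 40.4 CPM, their Vim at 3046 CPM and their Fn1 at 417 CPM, beside 41.6, 3289 and 421 CPM in the other cells. A doublet of a metastatic and an epithelial cell was not searched for, and its part in these cells was not tested. In the broad gate after thinning, Cdh2 was found in 11.9% (7.94 to 17.0) of the cells with Krt18 and in 10.7% (8.83 to 12.9) of those without. Fn1 was found in 61.9% and 62.2%. In the stringent gate Cdh2 was found in 25.0% (8.66 to 49.1) and 11.1% (5.21 to 20.0). Thinning left a Krt18 UMI in 18.8% of the broad-gate cells, against 65.2% at full depth. Most cells without Krt18 after thinning thus held it before, and these shares cannot show whether the cells fall into kinds. The spread of Fn1 was wide, with a median of 290 CPM over the 1159 cells of the broad gate, 96.7 CPM at the 10th and 1096 CPM at the 90th percentile.

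**Figure D3:**
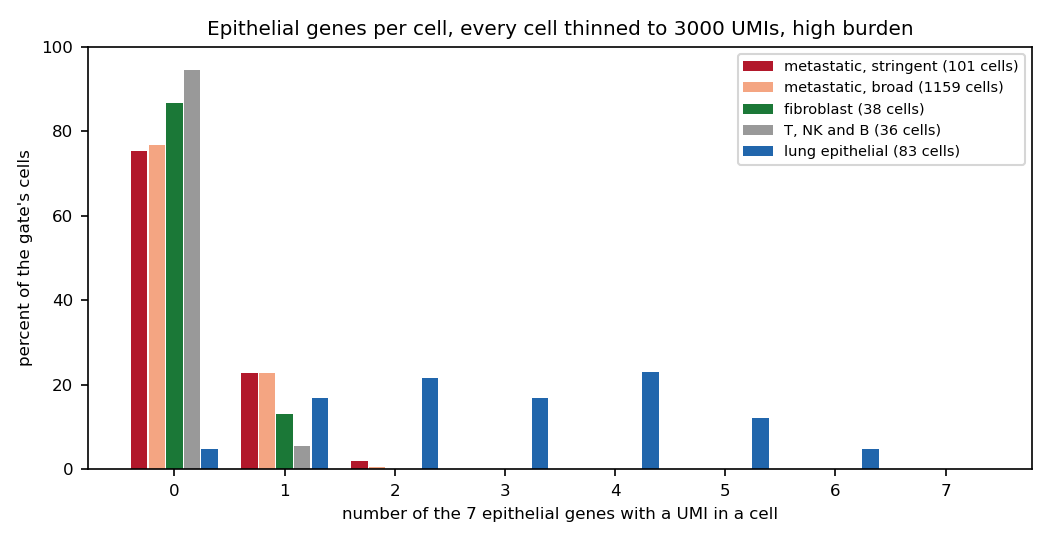
Percent of the cells of each high-burden gate that showed a given number of the 7 epithelial genes after every cell was thinned to 3000 UMIs. Metastatic cells, fibroblasts and T, NK and B cells pile up at 0, with 75.2% of metastatic cells there, and lung epithelial cells spread from 0 to 6 genes.

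Against fibroblasts of the same library the balance was less uniform. Fibroblasts are the resident mesenchymal cells of the lung, and the stringent gate held 38 of them at high burden. Krt18 and Cdh2 were called higher in metastatic cells and Fn1 lower, while Vim missed the 2-fold limit. Over all 5648 genes tested 16% were called higher and 10.9% lower, with a median log2 ratio of 0.27.

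Krt18 gave 186 UMIs in metastatic cells and 2 UMIs in fibroblasts at 7.75 CPM (0.938 to 28.0), a ratio of 9.65 (2.63 to 80.3). Cdh2 gave 112 and 3 UMIs, a ratio of 3.87 (1.29 to 19.1). Fibroblasts thus held N-cadherin RNA at a level not distinguishable from that of T, NK and B cells. Fn1 stood at 348 CPM in metastatic cells and 790 CPM (685 to 906) in fibroblasts, 2.27-fold lower (1.94 to 2.64). Vim stood at 3572 and 1801 CPM, with a log2 ratio of 0.99 (0.85 to 1.13). The other 6 epithelial genes gave at most 16 UMIs in metastatic cells and at most 2 in fibroblasts and did not pass the count filter, so a difference in them was not detectable at this depth. With the 1159 cells of the broad metastatic gate Krt18 and Cdh2 kept their call, at log2 ratios of 3.11 (1.26 to 6.16) and 1.84 (0.29 to 4.12), and Fn1 lost it, at -0.91 (-1.11 to -0.70). With the broad gate on both sides, which takes in 167 fibroblasts with metastatic markers at a summed 1017 CPM, all 3 calls ended: Krt18 stood at 67.0 against 60.9 CPM (0.14), Cdh2 at 41.6 against 27.1 CPM (0.62) and Fn1 at 421 against 654 CPM (-0.64), and Cldn7 was called lower instead (2.50 against 5.42 CPM, -1.12). The Fn1 call was also lost after thinning (-0.58), with the mean of each cell's CPM (-0.67) and with metastatic cells taken as those with PYMT and Ccnd1 (-0.82), although metastatic cells stayed lower throughout. After thinning Krt18 and Cdh2 no longer had enough UMIs for the filter, and Vim passed the 2-fold limit at 1.16. The summed markers of the metastatic gate stood at 333 CPM in these fibroblasts, 139 CPM in lung epithelial cells, 128 CPM in T, NK and B cells and 1415 CPM in metastatic cells, with a median of 0 markers per fibroblast, and the part of such RNA in the fibroblast values was not tested.

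Other genes of the same programs were taken from lists. The count filter sums UMIs over both sides, so a gene can pass through the side where it is high, and the counts that follow describe only the genes that passed. They stand beside 31.9% of all genes tested called higher and 8.62% lower against lung epithelium. Against fibroblasts these shares were 16% and 10.9%. Of 20 other junction and keratin genes, 5 passed the count filter between metastatic and lung epithelial cells and 4 were lower, with a median log2 ratio of -6.12. Muc1, a surface mucin, had a log2 ratio of -7.83, the keratin Krt19 of -6.24, the alveolar claudin Cldn18 of -6.12 and plakoglobin (Jup) of -1.62. Tjp1, the tight junction scaffold ZO-1, stood at 25.7 CPM in metastatic cells and 35.2 CPM in lung epithelium and was not called. Of 16 epithelial regulators 3 passed and all 3 were lower, with a median of -4.75: the small GTPase gene Rab25 with 1 against 69 UMIs, the protease inhibitor gene Spint2 at 18.1 against 486 CPM, and the transcription factor gene Klf5 at 13.7 against 37.7 CPM.

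Of 10 transcription factors of epithelial-mesenchymal transition, 6 passed the filter, each with more UMIs on the metastatic side. These 6 were called higher in metastatic cells than in lung epithelium, beside 31.9% of all genes tested, with a median log2 ratio of 2.07. Hmga2, a chromatin protein, stood at 194 against 8.50 CPM (log2 ratio 4.51), Twist1 at 190 against 15.8 CPM (3.59) and Snai1 at 49.8 against 7.29 CPM (2.77). Zeb1 (1.36), Zeb2 (1.17) and Tcf4 (1.16) differed less, and fell under the 2-fold limit when the shift of all genes was taken out. Against fibroblasts the same list divided: Hmga2 (5.65, from 483 and 1 UMIs) and Twist1 (1.44) were higher, Zeb2 (-2.23) and Tcf4 (-1.54) lower, and Snai1 (0.69) and Zeb1 (-0.72) were not called.

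Of 25 other mesenchymal genes 12 passed against lung epithelium and 8 were higher, with a median of 1.93, among them the protease inhibitor gene Timp1 at 277 against 29.1 CPM, the calcium-binding S100a4 at 2768 against 384 CPM and the galectin Lgals1 at 7774 against 1085 CPM. The matrix genes Sparc (0.28) and Col3a1 (-0.40) and the integrin gene Itgb1 (0.67) were not called. Against fibroblasts 17 passed, of which 3 were higher (S100a4, Lgals1 and Cd44) and 8 lower. The lower genes were led by the matrix genes Col1a1 (-6.66), Fbn1 (-6.53), Col3a1 (-6.45) and Col1a2 (-6.43). Col1a1, Col1a2 and Col3a1 were thus far lower in metastatic cells than in fibroblasts. This does not hold for collagen genes at large, since Col11a1 is a marker of the metastatic gate.

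The lung classes were next described on their own, since the epithelial genes are not shared evenly among them. Krt7 was highest in AT1 cells, the flat cells of gas exchange, at 2152 CPM in the low-burden and 2155 CPM in the high-burden library, and stood at 58.3 and 72.5 CPM in AT2 cells, which make surfactant. Cldn3 had the opposite order, with 0 UMIs in 36 low-burden AT1 cells and 1 UMI in 10 high-burden AT1 cells, against 502 and 452 CPM in AT2 cells. Ciliated cells held the highest levels of Cldn3 (1252 and 792 CPM), Krt8 (702 and 599 CPM) and Cldn7 (398 and 319 CPM) of all gates. Epcam varied less, from 162 to 333 CPM over AT2, AT1 and ciliated cells of both libraries. Club cells numbered 5 and 10, and their values rest on at most 27 UMIs per epithelial gene and library.

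Mesothelial cells, the lining of the pleura, carried both programs. Krt7, Krt8 and Krt18 stood at 478, 415 and 427 CPM in 13 low-burden cells and at 318, 318 and 423 CPM in 22 high-burden cells, beside Vim at 1861 and 1592 CPM. Cdh1 gave 1 and 0 UMIs, Cldn7 gave 1 and 1, and Cldn3 gave 4 and 43. The keratins and vimentin of these cells were therefore not accompanied by E-cadherin RNA above background. Epcam stood at 264 and 58.6 CPM, but 1 cell held 11 of its 21 low-burden UMIs. This pattern differed from that of metastatic cells, which held Krt18 without Krt7 or Krt8 above background.

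Epcam also appeared outside the epithelium. Alveolar macrophages, the resident phagocytes of the airspace, gave 288 Epcam UMIs at 185 CPM (log2 ratio over T, NK and B cells 2.46, 1.66 to 3.38) in the low-burden library, beside 188 CPM in AT2 cells. The UMIs were spread over 183 of 444 cells, with at most 6 in 1 cell. Cdh1 gave 55 UMIs at 35.4 CPM (log2 ratio 3.77, 1.23 to 9.10), in 51 cells. AT2 cells gave 276 Cldn3 UMIs beside 103 Epcam UMIs, while alveolar macrophages gave 4 Cldn3 UMIs beside 288 Epcam UMIs. Only 4 such cells were gated at high burden. Dendritic cells gave Epcam at 257 CPM (24 UMIs in 9 of 11 cells) and 196 CPM (15 UMIs in 7 of 10 cells) and Cldn7 at 75.0 and 78.5 CPM (7 and 6 UMIs), with 0 Cdh1 UMIs in either library. These levels rest on few cells and few UMIs.

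Cdh2 was highest in metastatic cells. In the stringent gate it gave at most 1 UMI in any class of the low-burden library. At high burden it lay between 0 and 13.8 CPM in every lung class of that gate, beside 45.0 CPM in metastatic cells. The most UMIs outside them were 27 in 705 monocytes or macrophages, at 3.59 CPM. In the broad gate low-burden AT2 cells gave 3 UMIs. High-burden lung classes of that gate reached 30.8 CPM in AT1 cells and 27.1 CPM in fibroblasts, beside 41.6 CPM in metastatic cells. In the stringent gate Vim was the broadest, from 113 CPM in low-burden AT2 cells to 5201 CPM in 9 high-burden smooth muscle cells or pericytes. Metastatic cells had the second highest Vim level of that gate at 3572 CPM, above endothelial cells at 2802 CPM. In the stringent gate Fn1 was highest in fibroblasts at 790 CPM, mesothelial cells at 741 CPM and monocytes or macrophages at 664 CPM of the high-burden library, and the interval of mesothelial cells (650 to 840) overlapped the values of the other two. In the broad gate mesothelial cells were highest at 1196 CPM (1118 to 1278), before AT1 cells at 795 CPM, monocytes or macrophages at 729.8 CPM and fibroblasts at 654 CPM.

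**Figure D4:**
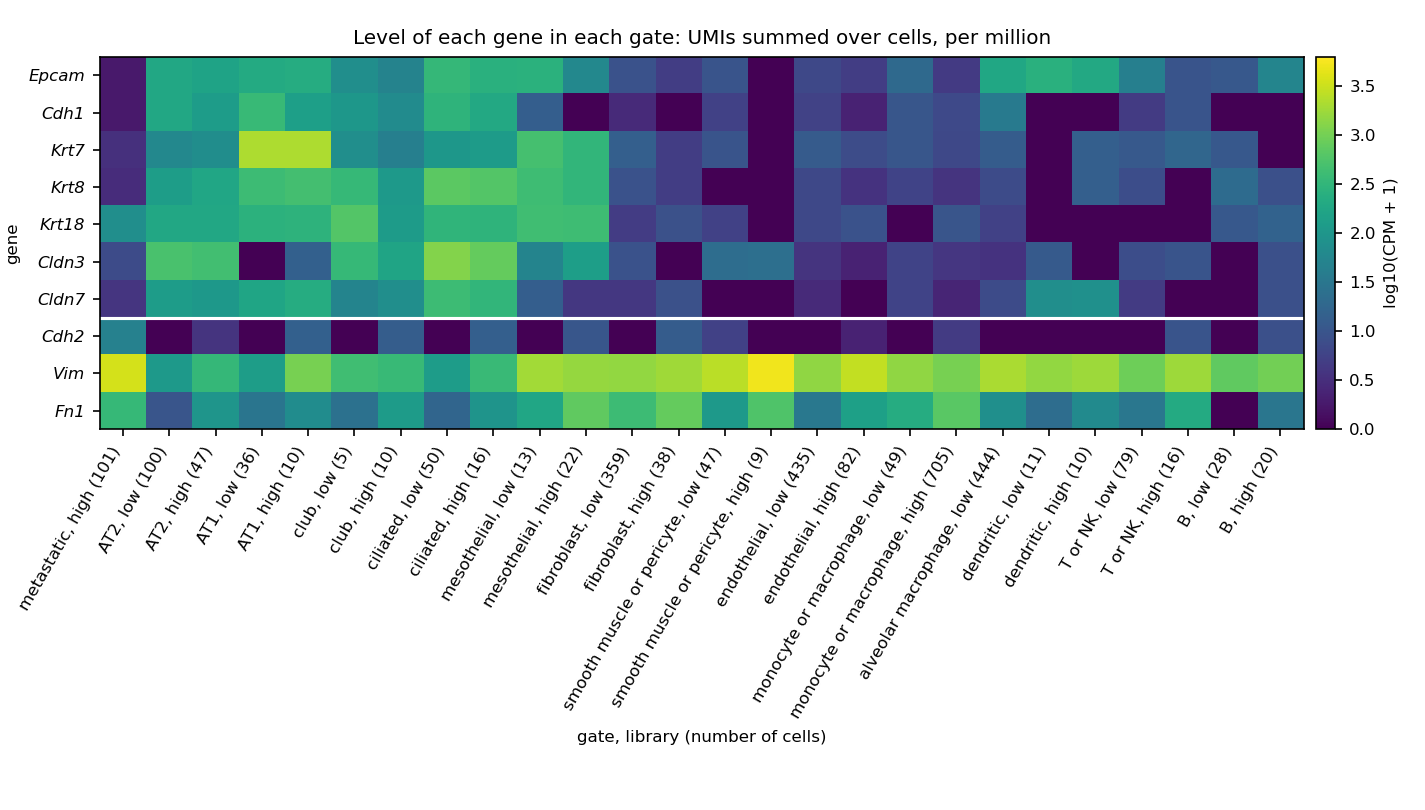
Level of each gene (rows, epithelial above and mesenchymal below the white line) in each gate and library with at least 5 cells (columns, number of cells in brackets), as log10(CPM + 1). Metastatic cells show Krt18 at 74.7 CPM with the other epithelial genes at 6.43 CPM or lower, mesothelial cells show keratins with Vim, and AT1 cells show Krt7 without Cldn3.

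The design compares low with high burden, and the same genes were followed within each class across the 2 libraries. In lung epithelium none of the 7 epithelial genes was called in the stringent gate. In the broad gate, with metastatic markers at a summed 541 CPM at high burden, 4 of the 7 were called lower: Epcam (-1.18), Cdh1 (-1.34), Krt7 (-1.17) and Cldn3 (-1.17). The share of all genes called in the broad gate is not given, so these 4 calls cannot be set against a general shift. In the stringent gate the log2 ratios of the 7 genes, high over low burden, ran from -0.81 for Cdh1 (135 against 237 CPM) to -0.18 for Krt8 (305 against 345 CPM). Their median was -0.42, beside -0.28 for all 4214 genes tested in that gate, of which 9.14% were called lower and 1.76% higher. When that general shift was taken out, Krt8 and Krt18 changed sign, to 0.10 and 0.04, and the other 5 stayed negative. Vim and Fn1 were called higher, Vim from 130 to 418 CPM (1.68, 1.39 to 1.98) and Fn1 from 14.5 to 97.2 CPM (2.75, 1.94 to 3.65), and Cdh2 gave 0 and 7 UMIs. Neither call could outlive a subtraction of free RNA at the level of T, NK and B cells. In these Vim moved from 874 to 1340 CPM and Fn1 from 23.3 to 112 CPM, above lung epithelium in both libraries. They also express Vim themselves, so the subtraction cannot show whether the calls rest on free RNA.

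By class, Vim was higher at high burden in AT2 cells (113 to 343 CPM, log2 ratio 1.60), ciliated cells (123 to 372 CPM, 1.60) and AT1 cells (129 to 1050 CPM, 3.03, from 36 and 10 cells), and not in club cells (428 to 367 CPM). The summed markers of the metastatic gate moved with it, from 0 to 373 CPM in AT1 cells, from 1.82 to 123 CPM in AT2 cells and from 13.0 to 96.2 CPM in ciliated cells, and their part in the Vim values was not tested. Cdh1 was called lower in AT1 cells, at 138 against 358 CPM (log2 ratio -1.37, -2.52 to -0.38), on 10 and 50 UMIs. The share of AT1 cells in the epithelial gate was smaller at high burden, with 10 of 83 cells against 36 of 191.

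In fibroblasts none of the 10 genes was called, beside 2.95% of 4742 genes called higher and 6.45% lower. Fn1 moved from 402 CPM in 359 cells to 790 CPM in 38 cells, a log2 ratio of 0.97 (0.74 to 1.20) that lay just under the 2-fold limit, and leaving out cells whose barcode both libraries list, or scaling by the median ratio, carried it over (1.00 and 1.05). With other compartments limited to 25% its direction turned, to -2.83 (-8.15 to -0.31), on 3 high-burden and 44 low-burden cells. Vim moved from 1539 to 1801 CPM (0.23, 0.08 to 0.37). Its direction turned when free RNA was subtracted at the level of T, NK and B cells (-0.53), but these express Vim themselves. In monocytes or macrophages Fn1 was called higher, from 228 CPM in 49 cells to 664 CPM in 705 cells (1.54, 1.13 to 1.98), where 5.92% of 8362 genes were called higher and 7.96% lower. Vim was not called there, at 1467 and 1032 CPM (-0.51, -0.67 to -0.34). Endothelial cells gave a Vim ratio of 0.93 (0.85 to 1.01) and a Fn1 ratio of 2.16 (1.71 to 2.61), and T, NK and B cells 0.62 (0.39 to 0.84) and 2.26 (1.13 to 3.53). Of the 28 Fn1 UMIs of T, NK and B cells at high burden, 24 came from the 16 T or NK cells. The Fn1 ratio thus lay above 0 in each of these classes in the stringent gate, lymphocytes included.

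**Figure D5:**
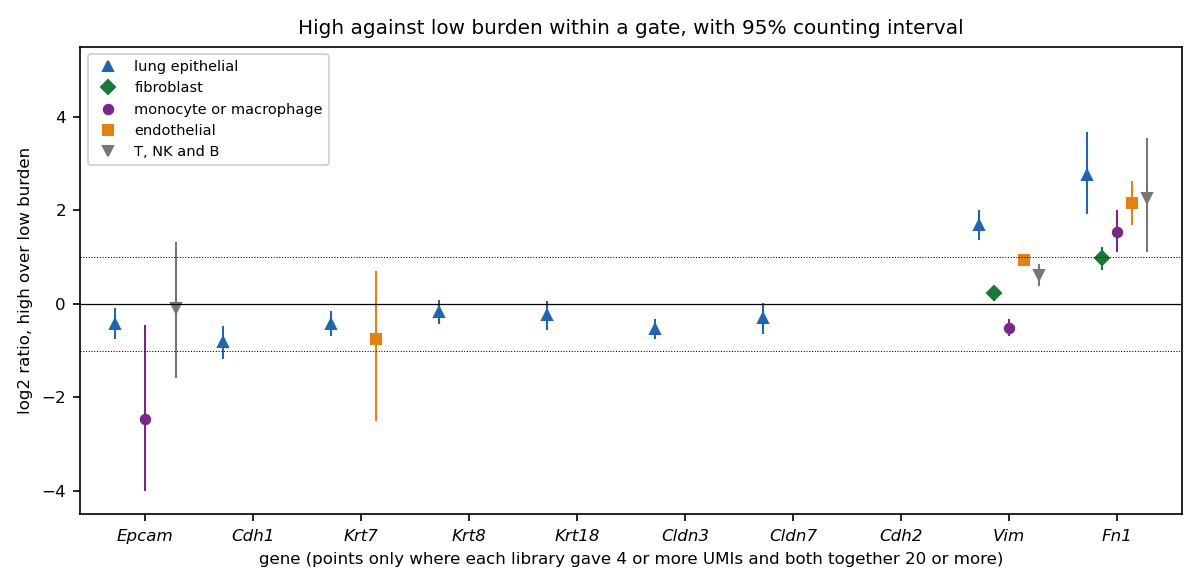
Log2 ratio of high over low burden within 5 gates for each gene, with 95% counting intervals; dotted lines mark the 2-fold limits, and points are drawn only where each library gave at least 4 UMIs and both together at least 20. The 7 epithelial genes of lung epithelium (blue) lie between -0.81 and -0.18, and Fn1 lies above 0 in all 5 gates, T, NK and B cells (gray) included.

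The pattern of each gene was last compared with that of other genes, as Pearson's r of log2(CPM + 10). It was taken over 17 groups of at least 20 cells (a gate in a library). The nearest genes named are those outside the 10, and pairs within the 10 are given apart. The groups share 2 libraries and their free RNA, so r is a description. Cdh1 was most like Myh14 (0.96), Nkx2-1 (0.95) and Cldn18 (0.92), and Cldn7 like Smim22 (0.95), Myh14 (0.95) and Nkx2-1 (0.94). Within the 10 genes the closest pair was Cdh1 with Cldn7 (0.95) and the most opposed Cldn7 with Vim (-0.90). Outside the 10, Epcam had no match above Npc1 (0.84), Lsr (0.83) and Slc25a36 (0.82), the lowest first match of the 10 genes. Its r with Cdh1, within the 10, was also 0.84. Krt7 was nearest to Clic3 (0.93), Slc39a8 (0.91) and Il18r1 (0.89), and Krt8 to Prr15l (0.93), Clic3 (0.90) and Il18r1 (0.89). Outside the 10, Krt18 was nearest to Prr15l (0.88), Apoa1bp (0.86) and Sdc1 (0.84). Its r with Krt8, within the 10, was higher at 0.91. Cldn3 was nearest to Cbr2 (0.90), a gate gene, Cxcl17 (0.88) and Ppp1r14c (0.88). Cdh2 was nearest to Etv4 (0.97), also a gate gene, Cst6 (0.94) and Rec114 (0.92), Vim to Cdk6 (0.88), Lyar (0.88) and Zcchc24 (0.87), and Fn1 to Cxcl1 (0.91), Rrbp1 (0.91) and Tmed3 (0.90).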

How the data were processed

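Groups were taken from the sample titles, with 1 mouse and 1 library per group. Per the labels and the methods, the authors processed the reads with Cell Ranger 2.0.2 on mm10 with the PYMT sequence added, and the deposited values are raw UMI counts per gene and cell. The methods name a later aggregation of the libraries, without saying if these files were taken before it. Submitters' processing notes also name Seurat.

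Cells with 1000 to 7000 genes and at most 10% mitochondrial UMIs were kept, the limits of the study. Doublets were kept. No cell annotation was used: classes were rebuilt from 15 marker lists, of which 3 markers are absent from the gene lists, so classes here can differ from those of the study. Gate genes are not results. The 10 genes, the gates, the lists and the comparisons were chosen with earlier results of these data known.

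UMIs were summed over the cells of a gate and scaled to 1000000 (CPM). Counts carry exact Poisson, shares Clopper-Pearson and ratios exact conditional binomial intervals at 95%, for counting error only. A limit of 3 counts stood for a count of 0. Genes with at least 50 UMIs over both sides were compared, and a call needed a 2-fold difference and an interval off 0. Named genes were all 10 genes and the 3 highest and 3 lowest of each other list (by metastatic over lung epithelial cells). For each of the 10, the 3 genes outside the 10 with the highest r were also named. Other genes of the lists (those against fibroblasts, and those at high against low burden) were named after their values were seen. Scripts were tested on simulated data. Python 3.11.15, numpy 2.4.6, scipy 1.17.1, pandas 2.3.3 and matplotlib 3.10.9 were used. Gates, cell and count filters, scaling, free RNA and thinning were varied. Positions came from GENCODE M21 and promoter sequences from RefSeq (GRCm38.p6). Some items are not reported here.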

Additional observations from a re-analysis of the deposited data

How the results depend on the processing

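With 1 library per group, no replicate could be left out. No paired analysis was possible because each group holds 1 sample and the results come from no test. Of 393 alternative values of single genes, 323 stayed within the main interval, 70 moved outside it and 0 called values reversed. The count of the 10 genes called between metastatic and lung epithelial cells was 10, 9 with the broad gate (without Fn1) and 6 after thinning to 3000 UMIs, which leaves fewer UMIs to pass the filter. Between metastatic cells and fibroblasts it was 3, and 1 with the broad gate (Cldn7) and 1 after thinning (Vim), neither of them among the 3. In lung epithelium at high against low burden it was 2, against 1 with other compartments limited to 25%, 7 with the broad gate (4 epithelial genes lower), 0 after free RNA was subtracted and 1 after thinning. In fibroblasts it was 0, against 1 with the limit of 25%, 2 with the broad gate, 1 without shared barcodes and 1 with median-of-ratios scaling. In monocytes or macrophages it was 1, against 2 with the broad gate, 2 after free RNA was subtracted and 2 without a filter on low counts. The free RNA subtracted was the level of T, NK and B cells, which express Vim themselves. That level exceeded Vim and Fn1 of lung epithelium in both libraries, so the counts after subtraction cannot be read for these genes. The broad gate for lung classes takes in cells with metastatic markers (summed 1017 CPM in its 167 high-burden fibroblasts, against 333 CPM in the stringent gate), and whether this set its counts was not tested. The shares of all genes called under these alternatives are not given. The limit of 25% left no metastatic cell, so it gave no value there. Median-of-ratios scaling shifted ratios by 0.59, 0.26, -0.28, -0.07 and 0.01 in the order above. Depth limits the epithelial genes in fibroblasts and lymphocytes, which rest on 0 to 21 UMIs per gene.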

Other observations

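The other lists were also followed from low to high burden. Of all genes tested, 1.76% were called higher and 9.14% lower in lung epithelium, and 2.95% and 6.45% in fibroblasts. In monocytes or macrophages 5.92% were called higher and 7.96% lower. In lung epithelium, 8 of 20 other junction and keratin genes passed the count filter and 1 was lower, the tight junction gene Ocln (59.7 to 25.5 CPM, log2 ratio -1.23, -2.02 to -0.49). Of 16 epithelial regulators 5 passed and 2 were lower, the transcription factor gene Elf3 (40.5 to 19.4 CPM) and Prom1 (69.4 to 26.7 CPM). Of 25 other mesenchymal genes 8 passed, 3 were higher and 2 lower. S100a4 moved from 26.0 to 384 CPM, Lgals1 from 97.3 to 1085 CPM and Col6a1 from 23.1 to 69.2 CPM, while the contractile genes Acta2 (187 to 18.2 CPM) and Tagln (65.5 to 4.86 CPM) fell. The summed markers of the metastatic gate moved from 5.78 to 139 CPM in these cells, and metastatic cells held S100a4 at 2768 and Lgals1 at 7774 CPM. The part of such RNA in these values was not tested. Of the transition factors 1 of 10 passed and was not called.

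In fibroblasts, 21 of the 25 mesenchymal genes passed: S100a4 (71.3 to 368 CPM) and Timp1 (51.7 to 182 CPM) were higher, and Col1a1 (1293 to 608 CPM) and Acta2 (204 to 77.5 CPM) lower. Twist2 was the only transition factor called of 7 that passed, with 85 UMIs at low and 1 UMI at high burden (log2 ratio -3.75, -9.07 to -1.24). Tjp1 and Jup were lower among 3 junction genes that passed, and the 1 regulator that passed was not called. In monocytes or macrophages, 18 mesenchymal genes passed, with Timp1, Col6a1, Mmp14 and Lgals1 higher and Mmp2 and Acta2 among the lower genes. Of the junction genes 4 passed and Cldn18 and Jup were lower, of the transition factors 5 passed and Tcf4 was lower, and the 1 regulator that passed was not called.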
